A study of Mus musculus with 4 samples.

Results

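Small nucleolar RNAs (snoRNAs) were measured as 73 genes among the 22180 genes that a single-symbol probe set represented on the arrays. They were chosen by name, as genes whose symbol starts with Snord or Snora followed by a digit, and dim genes were kept. The set held 47 box C/D genes (Snord) and 26 H/ACA genes (Snora). The samples were mammary epithelial cells isolated from the inguinal glands of mice aged 4 weeks on a congenic FVB/NJ background. In 2 samples the mice were MMTV-Cre+, meaning that they express Cre recombinase from the mouse mammary tumour virus promoter, and the remaining 2 were from wild-type littermates. Replicates are labelled as biological, without a statement of how many mice each sample holds. In such samples fewer cells of a type and less RNA per cell cannot be told apart. The comparison asks how the transcripts of Cre-expressing glands differ from those of wild-type glands.

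snoRNAs are short nuclear RNAs, most of which are cut from the introns of host genes, many of them genes of ribosome production and protein synthesis. Box C/D snoRNAs pair with a target, mainly ribosomal RNA, and guide the methyltransferase fibrillarin to it, while H/ACA snoRNAs guide the pseudouridine synthase dyskerin. A few of them take part in cutting the ribosomal RNA precursor instead of modifying it. A probe set on an array of this kind cannot separate the mature snoRNA from unspliced host RNA that spans the same bases. Total RNA was amplified and labelled from 50 ng.

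Values are log2 expression as the authors deposited them, and their scale and limits apply to every level below. The brightness of a probe set depends on its own probes as well as on RNA amount, so the order of levels among genes is an order of signals. The median over all probe sets and arrays was 2.84, and a gene whose mean over the 4 arrays lay under it is called dim here. Of the 6 epithelial markers, 5 had a level of at least 6, with the luminal keratin gene Krt8 between 10.30 and 10.40 and the adhesion gene Epcam between 8.52 and 8.67. The basal markers were lowest on MMTV-Cre replicate 1, with the keratin gene Krt14 at 7.27 there against 7.97 to 8.07 on the others, and Trp63 at 3.11 against 3.54 to 3.66. Wild-type replicate 1 stood apart in lymphocyte transcripts. Over the 9 lymphocyte markers measured, its mean stood 2.05 above the average of the 4 arrays, against −0.64 to −0.73 on the others. The MMTV-Cre replicates differed in fibroblast markers, whose mean over 4 genes lay −0.25 and 0.45 from the 4-array average, against −0.05 and −0.15 in wild-type. The collagen genes Col1a1 and Col3a1 were higher in both MMTV-Cre arrays, by 0.32 and 0.47. The other fibroblast markers, Dcn and Pdgfra, had overlapping groups, with differences of 0.11 and −0.12. The part of these markers in the snoRNA values was not tested.

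Of the 73 snoRNA genes, 62 reached the median of all probe sets and 11 were dim. Their median level was 3.96, against 2.96 over all genes, and 13 of them (17.8%) had a level of at least 6, against 12.3% of all genes. Both classes covered nearly the whole range. Box C/D genes had a median of 4.15 (quartiles 3.01 and 5.06), and H/ACA genes a median of 3.68 (quartiles 2.85 and 5.01). The difference between these class medians was 0.47, and on single arrays it was 0.07 and 0.64 in the MMTV-Cre samples and 0.47 and 0.38 in the wild-type samples. The MMTV-Cre arrays were thus further apart in this difference than its own size. It rested on the dim genes: among the 62 genes that were not dim the medians were 4.21 and 4.12. The upper quartiles lay within 0.05 of each other, 8 of 47 box C/D genes and 5 of 26 H/ACA genes reached a level of 6, and 5 box C/D and 6 H/ACA genes were dim. The 2 classes also differ in annotated length, with RefSeq medians of 68 and 118.5 bases, but length and level were nearly unrelated across the 73 genes (Spearman rho 0.07, a description over genes that share the same arrays).

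**Figure D1:**
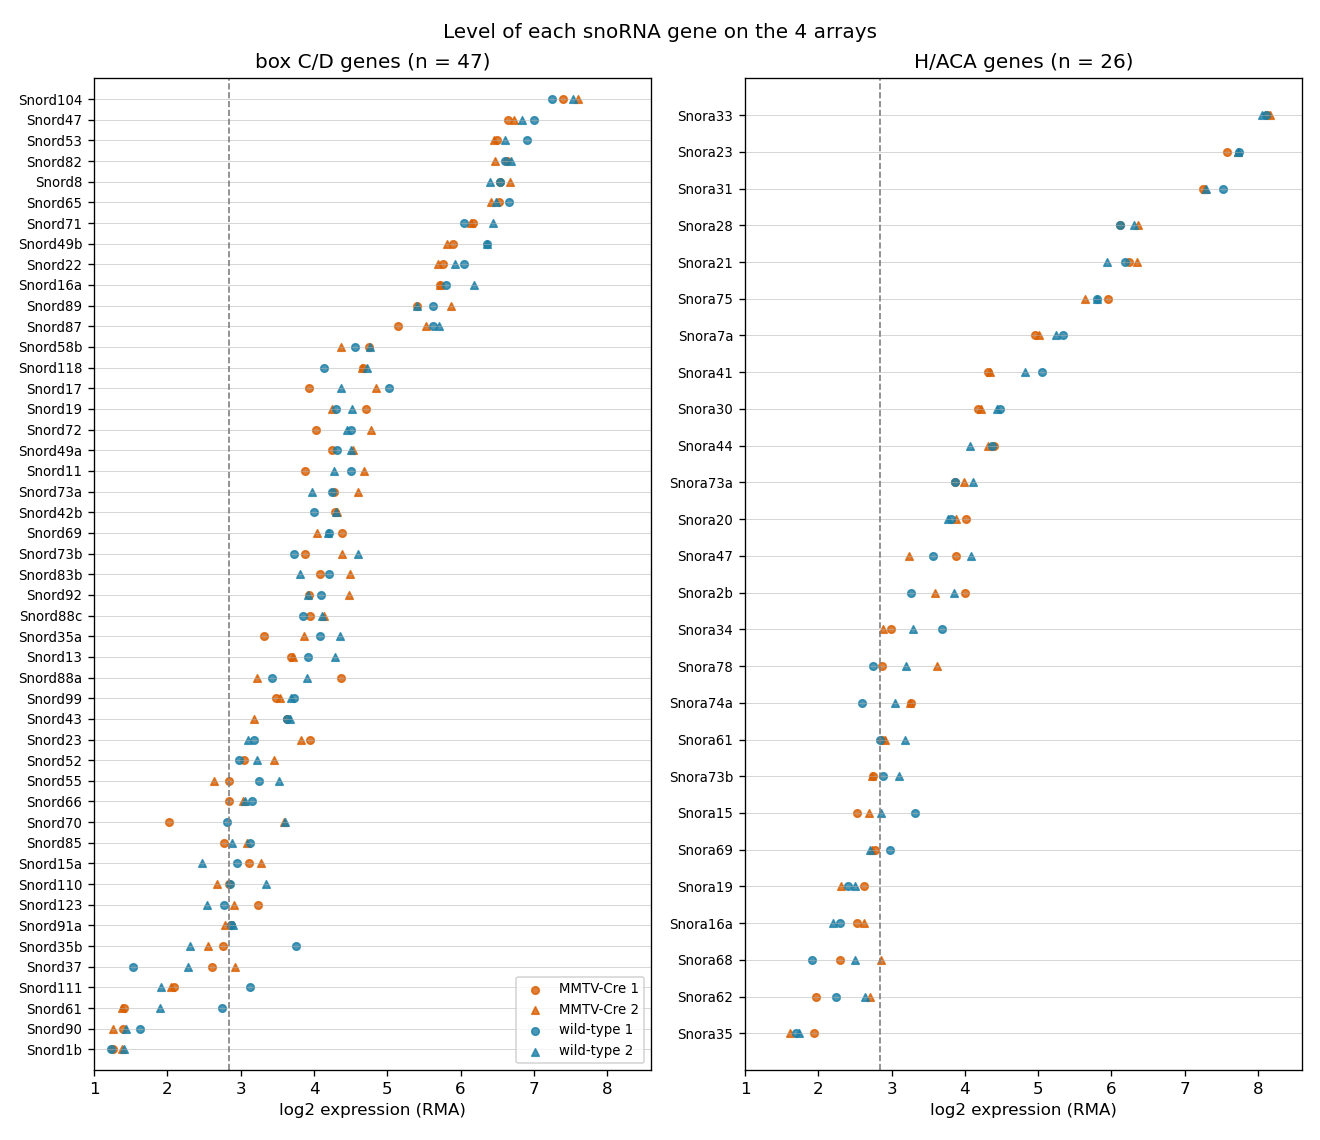
Level of each snoRNA gene on each array (log2 expression), box C/D genes on the left and H/ACA genes on the right, in order of their mean over the 4 arrays. Orange marks MMTV-Cre and blue wild-type samples, circles replicate 1 and triangles replicate 2; the dashed line is the median of all probe sets, 2.84, and 62 of the 73 genes have their mean at or above it.

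Of the 8 brightest H/ACA genes, 5 lay within genes of ribosomal proteins or of translation factors. Snora33, which lies within the ribosomal protein gene Rps12 in RefSeq, was the brightest of all. It measured 8.12 and 8.16 on the MMTV-Cre arrays against 8.11 and 8.05 on the wild-type arrays, a nearly constant signal. Snora23, within the nuclear import gene Ipo7, measured 7.58 and 7.73 on the MMTV-Cre arrays against 7.74 and 7.72 on the wild-type arrays. Snora31, within Tpt1, measured 7.26 and 7.27 on the MMTV-Cre arrays against 7.52 and 7.29 on the wild-type arrays. The groups of Snora31 did not overlap, but the wild-type replicates were further apart than the nearest arrays of the 2 groups.

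The next H/ACA genes were Snora28 (level 6.23, within the initiation factor gene Eif5), Snora21 (6.18, within Rpl23) and Snora75 (5.80, within the nucleolin gene Ncl). Snora7a within Rpl32 and Snora41 within the elongation factor gene Eef1b2 completed the 8 brightest of the class at 5.14 and 4.63. Snora33 had a second probe set that behaved otherwise. It measured 4.25 and 4.91 on the MMTV-Cre arrays against 5.16 and 5.45 on the wild-type arrays, a log2 difference of −0.72 (95% interval −1.43 to −0.01), where the brighter one had 0.06. The probe sets of this gene therefore disagreed, and its direction depends on which one is read.

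Among box C/D genes Snord104 was the brightest, with 7.39 and 7.60 on the MMTV-Cre arrays against 7.24 and 7.54 on the wild-type arrays. Its groups overlapped. Snord47, one of the snoRNAs of the Gas5 introns, measured 6.65 and 6.73 on the MMTV-Cre arrays against 6.998 and 6.84 on the wild-type arrays. Snord53, within Wdr43, measured 6.50 and 6.46 on the MMTV-Cre arrays against 6.91 and 6.61 on the wild-type arrays. Both were lower in both MMTV-Cre arrays, with the nearest arrays of the 2 groups closer together than the wild-type replicates.

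Snord82 (level 6.60, within Ncl), Snord8 (6.54), Snord65 (6.52) and Snord71 (6.20) had overlapping groups, with log2 differences of −0.10, 0.13, −0.11 and −0.09. The last of the 8 brightest, Snord49b, did not overlap. Its values were 5.89 and 5.81 on the MMTV-Cre arrays and 6.36 on each wild-type array. At the other end of the range, Snord1b had a level of 1.32, the lowest of the set, and the H/ACA gene Snora35 had 1.75. Snora35 lies within the serotonin receptor gene Htr2c, which was also dim at 1.62, as were the 3 neuron markers measured, with values from 1.98 to 2.69. The dim snoRNAs named here, Snord1b and Snora35, were chosen after their values were seen.

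The wild-type replicates differed more in snoRNA genes than in genes at large, and so did the MMTV-Cre replicates among box C/D genes of middle level. The median gap between the 2 replicates, the absolute difference of their log2 values, was 0.16 in MMTV-Cre and 0.24 in wild-type over the 73 snoRNA genes, against 0.16 and 0.15 over all genes. The class medians were 0.20 and 0.24 for box C/D genes and 0.12 and 0.24 for H/ACA genes. All genes were split by level into 4 bands of equal size. The 35 snoRNA genes in the third band (2.96 to 4.75) had median gaps of 0.32 and 0.26, against 0.19 and 0.18 over all genes of that band. There the 25 box C/D genes had 0.37 and 0.25, and the 10 H/ACA genes 0.12 and 0.34. The 19 snoRNA genes in the highest band had 0.11 and 0.16, against 0.12 and 0.11 over all genes. The 7 H/ACA genes among these 19 had 0.11 and 0.09. The 15 snoRNA genes in the second band had 0.16 and 0.39, against 0.18 and 0.17 over all genes. Gaps of at least 0.5 occurred in 12 of the 73 snoRNA genes in MMTV-Cre and in 11 in wild-type. Over all 22180 genes they occurred in 1667 and 1391.

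**Figure D2:**
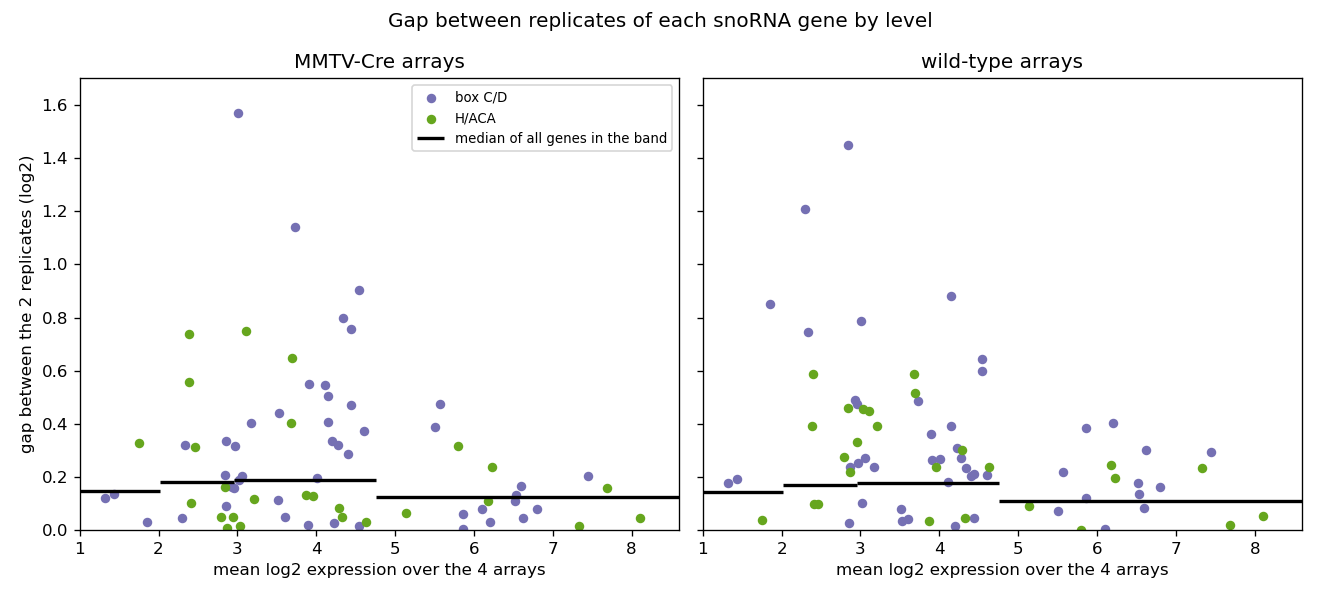
Gap between the 2 replicates of a group (log2, vertical) against mean level over the 4 arrays (log2, horizontal), 1 point per snoRNA gene, for the MMTV-Cre samples (left) and the wild-type samples (right). Black bars are medians of all genes in each band of level; in the third band the snoRNA medians are 0.32 and 0.26 against bars at 0.19 and 0.18, and the widest gaps among snoRNA genes with a level of at least 6 are 0.24 and 0.40.

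The widest gaps were in box C/D genes. Snord70, within the box C/D core protein gene Nop58, measured 2.02 and 3.59 on the MMTV-Cre arrays against 2.82 and 3.60 on the wild-type arrays. Snord88a measured 4.37 and 3.23 on the MMTV-Cre arrays against 3.42 and 3.91 on the wild-type arrays, and the wild-type values lay inside the range of the MMTV-Cre ones. Snord17, within Snx5, measured 3.94 and 4.84 on the MMTV-Cre arrays against 5.02 and 4.37 on the wild-type arrays. In each of these genes the replicates were further apart than the group means.

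Snord11, also within Nop58, had a gap of 0.80 in MMTV-Cre and 0.23 in wild-type. In wild-type the widest gap was that of Snord35b, at 3.76 in replicate 1 and 2.31 in replicate 2, against 2.76 and 2.55 in MMTV-Cre. Snord111 stood at 3.12 in wild-type replicate 1 and between 1.92 and 2.09 on the other arrays. Snord35b and Snord111 were thus high in the array that held the lymphocyte transcripts, whose part in their values was not tested. Snord61 and Snord73b followed, with wild-type gaps of 0.85 and 0.88. The highest value was on MMTV-Cre replicate 1 in 12 snoRNA genes (16.4%, all genes 25.3%), on MMTV-Cre replicate 2 in 21 (28.8%, all genes 26.1%), and on the wild-type arrays in 20 each (27.4%, all genes 23.4% and 25.2%). The lowest value was on the MMTV-Cre arrays in 22 and 21 genes (30.1% and 28.8%, all genes 27.9% and 23.8%) and on the wild-type arrays in 15 each (20.5%, all genes 26.2% and 22%).

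No snoRNA gene differed between MMTV-Cre and wild-type past the threshold. By limma, with p-values adjusted over all 22180 genes, 0 of 73 snoRNA genes and 0 of all genes (0%) had an adjusted p under 0.05, and the smallest adjusted p among snoRNA genes was 0.963. The median half-width of their 95% intervals was 0.39 log2 units. Taken as MMTV-Cre minus wild-type, the median log2 difference came to −0.09 for box C/D genes and −0.04 for H/ACA genes, against −0.00 over all genes. Differences lay below 0 in 29 of 47 box C/D genes (61.7%) and 14 of 26 H/ACA genes (53.8%), against 50.4% of all genes. The direction of the H/ACA median turned without wild-type replicate 2 (0.04) and was −0.04 without wild-type replicate 1, while the box C/D median stayed between −0.04 and −0.11 without any 1 array.

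Small unadjusted p-values were nevertheless more frequent among snoRNA genes than among all genes. At an unadjusted p under 0.05 by limma stood 15 of them (20.5%), 6 higher and 9 lower in MMTV-Cre, against 4.56% of all genes, of which 2.26% were higher and 2.3% lower. The share came to 12.3% with a variance trend on level, in which all genes gave 4.44%, and to 12.3% without MMTV-Cre replicate 1, in which all genes gave 4.57%. Without wild-type replicate 1 it was 15.1%, with 3.35% of all genes. Among the 36 snoRNA genes with a level of at least 4 it was 8.33%, against 2.75% of all genes at that level. In 32 of the 73 (43.8%) the groups did not overlap, against 33% of all genes. Both MMTV-Cre arrays were higher in 10 snoRNA genes (13.7%, all genes 16.6%) and lower in 22 (30.1%, all genes 16.3%). The lower ones were 15 of 47 box C/D (31.9%) and 7 of 26 H/ACA genes (26.9%). The higher ones were 5 of 47 box C/D (10.6%) and 5 of 26 H/ACA genes (19.2%). Over all 73 snoRNA genes the median replicate gap was 0.16 in MMTV-Cre and 0.24 in wild-type, against 0.16 and 0.15 over all genes. The part of replicate gaps in these counts was not tested.

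**Figure D3:**
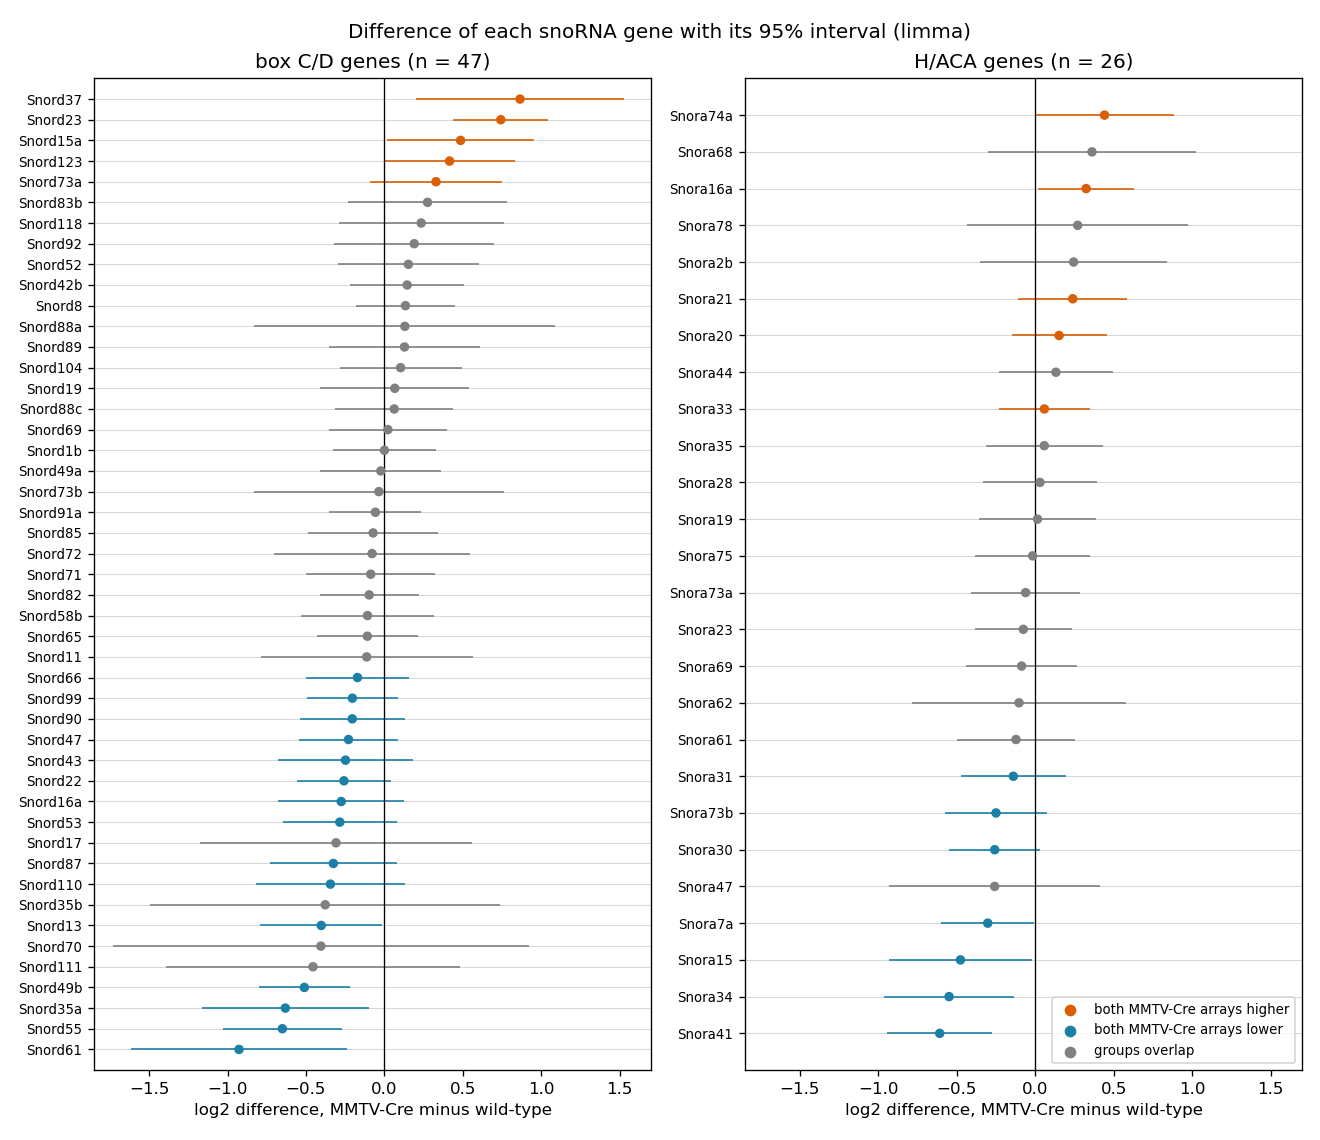
Log2 difference of each snoRNA gene, MMTV-Cre minus wild-type, with its 95% interval from limma (n = 2 samples per group), box C/D genes on the left and H/ACA genes on the right. Colours show whether both MMTV-Cre arrays lay above (orange, 10 genes) or below (blue, 22 genes) both wild-type arrays; no gene passed an adjusted p of 0.05.

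Of the genes lower in both MMTV-Cre arrays, Snora41 had the smallest p. It measured 4.31 and 4.34 on the MMTV-Cre arrays against 5.05 and 4.82 on the wild-type arrays, a log2 difference of −0.61 (95% interval −0.94 to −0.27). Snord49b differed by −0.51 (−0.80 to −0.22), with replicates that agreed within 0.08 in each group. Snord55 measured 2.84 and 2.63 on the MMTV-Cre arrays against 3.25 and 3.52 on the wild-type arrays, a difference of −0.65 (−1.03 to −0.27). The unadjusted limma p was 0.00466 for Snora41, 0.0055 for Snord49b and 0.00612 for Snord55, with an adjusted p of 0.963 for each.

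Snord61, within Rbmx, had the widest difference in this direction, −0.93 (−1.62 to −0.24). It measured 1.41 and 1.38 on the MMTV-Cre arrays against 2.75 and 1.89 on the wild-type arrays, all in the dim range, and the difference was −0.50 without wild-type replicate 1 and −1.35 without wild-type replicate 2. Snora34, within Kansl2, measured 2.995 and 2.88 on the MMTV-Cre arrays against 3.68 and 3.29 on the wild-type arrays, a difference of −0.55 (−0.96 to −0.14) that was −0.35 without wild-type replicate 1. Snora7a, described above for its level, stood at 4.95 and 5.02 against 5.33 and 5.24, a difference of −0.30 (−0.60 to −0.01).

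Of the genes higher in both MMTV-Cre arrays, Snord23 had the smallest p. It lies within Nop53, a gene of large ribosomal subunit assembly, and measured 3.94 and 3.83 on the MMTV-Cre arrays against 3.18 and 3.10 on the wild-type arrays. Its log2 difference was 0.74 (0.44 to 1.05), with an unadjusted limma p of 0.00111 and an adjusted p of 0.963, and it lay between 0.69 and 0.80 without any 1 array. Snord37, within the elongation factor gene Eef2, had the widest difference, 0.86 (0.20 to 1.53), at 2.61 and 2.93 in MMTV-Cre against 1.53 and 2.28 in wild-type. It was dim, and its difference was 0.49 without wild-type replicate 1.

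Snord15a, within Rps3, measured 3.12 and 3.27 on the MMTV-Cre arrays against 2.95 and 2.47 on the wild-type arrays, a difference of 0.49 (0.02 to 0.95) that was 0.25 without wild-type replicate 2. Snora16a, within Snhg12, differed by 0.32 (0.02 to 0.63) and was dim on all arrays. Snora74a, within Snhg4, measured 3.27 and 3.25 on the MMTV-Cre arrays against 2.59 and 3.04 on the wild-type arrays, a difference of 0.44 (0.00 to 0.88) that was 0.21 without wild-type replicate 1 and 0.67 without wild-type replicate 2. Snord123, within Snhg18, differed by 0.42 (0.00 to 0.83), and by 0.25 without MMTV-Cre replicate 1. Of the 6 genes taken by smallest p in this direction, those other than Snord23 all had levels of 3.04 or less, near or under the median probe set.

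A fixed list of snoRNAs linked to ribosomal RNA processing had 5 of its 14 genes measured by a single-symbol probe set. Snord118 (U8), needed for the large-subunit RNAs, measured 4.67 and 4.66 on the MMTV-Cre arrays against 4.13 and 4.73 on the wild-type arrays. Its groups overlapped, and its difference of 0.23 (−0.29 to 0.76) was −0.07 without wild-type replicate 1. Snord13 (U13) and Snord22 (U22), which act on the small-subunit RNA, were lower in both MMTV-Cre arrays. Snord13 stood at 3.69 and 3.71 against 3.92 and 4.28, a difference of −0.40 (−0.79 to −0.01) that was −0.22 without wild-type replicate 2. Snord22 stood at 5.76 and 5.70 against 6.05 and 5.93, a difference of −0.26 (−0.56 to 0.04). Snora73a and Snora73b (U17) differed by −0.06 and −0.25, with groups that overlapped in Snora73a only, and Snora73b differed by −0.14 without wild-type replicate 2. None of the 5 passed, and 4 had differences below 0 (80%), against 58.9% of snoRNA genes and 50.4% of all genes.

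Of snoRNAs from 3 well known host genes, 1 each was measured by a single-symbol probe set: Snord35a of Rpl13a, Snord47 of Gas5 and Snord22 of Snhg1. The snoRNAs of Rpl13a are known from the response of cells to lipid stress. Snord35a measured 3.31 and 3.86 on the MMTV-Cre arrays against 4.09 and 4.35 on the wild-type arrays, a difference of −0.63 (−1.16 to −0.10), and was −0.36 without MMTV-Cre replicate 1. Each of the 3 was lower in both MMTV-Cre arrays, as were 30.1% of snoRNA genes and 16.3% of all genes. Probe sets that name other Rpl13a snoRNAs together with the host did not all do so, with differences of −0.43 for Snord34, −0.07 for Snord32a and 0.12 for Snord33. Of 5 snoRNAs in use as references in quantitative PCR, Snord61 and Snord72 were measured by a single-symbol probe set. Snord72 measured 4.02 and 4.78 on the MMTV-Cre arrays against 4.50 and 4.46 on the wild-type arrays, with a replicate gap of 0.76 in MMTV-Cre. No single-symbol probe set named a Snord115, Snord116 or Snord112 to Snord114 gene.

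The genes around the snoRNAs had smaller differences than the snoRNAs themselves. In RefSeq genes of mouse assembly GRCm38.p6, 64 of the snoRNA genes lay within the span of 1 longer gene, 6 within several and 3 within none. The gene positions used carry no strand, so a surrounding gene may lie on the other strand. Of the 64, 55 had a surrounding gene measured by its own probe set, 41 different genes in all. The log2 differences of these surrounding genes ran from −0.25 to 0.17 with a median size of 0.06, and those of the 55 snoRNA genes from −0.93 to 0.86 with a median size of 0.20. The probe sets of the surrounding genes had a median level of 7.81 and those of the snoRNA genes 4.01, and the part of level in this contrast was not tested. The signs were the same in 21 of 55, and the differences of the pairs were nearly unrelated (Pearson r 0.04, Spearman rho 0.08, a description over pairs that share the arrays and, for some, the surrounding gene).

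**Figure D4:**
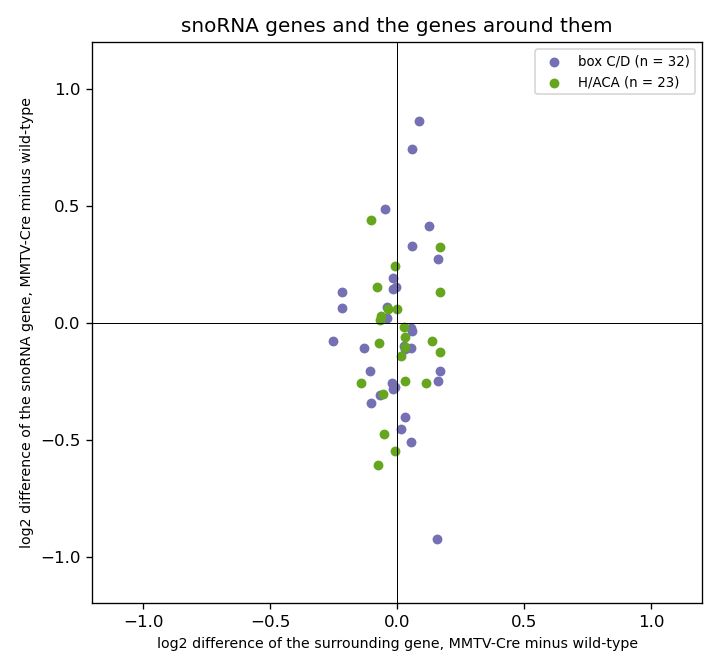
Log2 difference, MMTV-Cre minus wild-type, of each snoRNA gene (vertical) against that of the RefSeq gene around it (horizontal), for 55 snoRNA genes. Both axes have the same scale; the surrounding genes lie between −0.25 and 0.17 and the snoRNA genes between −0.93 and 0.86.

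Pairs of snoRNA genes described above follow. Around Snora41, Eef1b2 differed by −0.07 (−0.37 to 0.22), and around Snord23, Nop53 differed by 0.06 (−0.31 to 0.42). Around Snord37, Eef2 differed by 0.09 (−0.27 to 0.44), and around Snord61, Rbmx differed by 0.16 (−0.21 to 0.52). Whether a snoRNA gene differed from its surrounding gene was not tested.

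Of the surrounding genes, 11 held more than 1 snoRNA gene, 25 in all. Within a surrounding gene the levels of its snoRNAs spanned 0.12 to 2.51 and their differences 0.04 to 0.79. The long RNA 2410006H16Rik held Snord65, Snord49b and Snord49a, with levels of 6.52, 6.11 and 4.40 and differences of −0.11, −0.51 and −0.02, while the long RNA itself differed by 0.05. Within Snhg12, the levels of Snora44, Snord99, Snora61 and Snora16a spanned 1.87 and their differences 0.53. Snord99 was lower and Snora16a higher in both MMTV-Cre arrays. The 2 snoRNAs of Gnl3, Snord19 and Snord69, had differences of 0.07 and 0.02, the narrowest span of the 11.

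Transcripts of the proteins that snoRNAs work with showed no difference past the threshold. Of the box C/D core protein genes 3 of 5 listed names were measured, with log2 differences of −0.10 for Nop56, 0.03 for Nop58 and 0.08 for Snu13. All 4 H/ACA core protein genes were measured, with −0.12 for Nhp2, −0.02 for Nop10, 0.10 for the pseudouridine synthase gene Dkc1 and 0.15 for Gar1. Of 12 assembly factor genes 8 had differences below 0. The smallest p among them was that of Pih1d1, a part of the chaperone complex that builds snoRNPs, which differed by −0.30 (−0.58 to −0.01). Of 37 listed host genes 32 were measured, with a median difference of 0.01, and 18 were above 0. Snhg11 had the smallest p among them, with a difference of −0.58 (−1.07 to −0.09). The 5 small Cajal body RNAs measured, relatives of snoRNAs that guide changes on spliceosomal RNA, had a median difference of 0.17. Scarna17, of smallest p among them, was bright and separate, with 7.69 and 7.79 on the MMTV-Cre arrays against 7.31 and 7.03 on the wild-type arrays. Its difference was 0.57 (0.21 to 0.93), with an adjusted limma p of 0.963. Scarna2 was also higher in both MMTV-Cre arrays, by 0.43, and Scarna8 lower, by −0.23. The groups of the remaining small Cajal body RNAs overlapped.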

How the data were processed

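The authors deposited RMA values on a log2 scale, computed in oligo per the submitters' processing notes, with versions not given in the sources used here. That the scale is log2 was read from the values, 0.37 to 12.48. RMA equalises arrays, which hides any change common to most transcripts. Of 41345 probe sets 23521 carried 1 symbol in the platform annotation, for 22180 genes. The brightest probe set by 4-array mean stood for a gene, and no filter on dim genes was used. Among snoRNA probe sets 75 had 1 symbol. The comparison of groups used limma 3.58.1 under R 4.3.3 (lmFit, eBayes without trend, two-sided, Benjamini-Hochberg over all genes, threshold 0.05). All 73 members matched the RefSeq table by Entrez identifier. The number of arrays limits precision, and a two-sided exact permutation test of 2 against 2 cannot go below p = 0.333.

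Members and lists were chosen with earlier results of these data known. Named members are the 8 brightest per class, the 6 of smallest p per direction with separate groups, the 4 widest replicate gaps per group, the genes nearest the median probe set (Snord35b and Snora69) and fixed lists; from lists of other genes, those of smallest p. Snord1b, Snora35, Snora44, Snord99, Snora61, Snord49a, Snord19 and Snord69 were chosen after their values were seen. The fit was tested on simulated data, with planted differences larger than any seen among the snoRNA genes. Sequences of snoRNAs were not used here, so a planned motif search was not run. Alternatives were filters, the mean of probe sets, scalings, variance models, the replicate block and leaving out each array.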

Additional observations from a re-analysis of the deposited data

How the results depend on the processing

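No snoRNA gene passed an adjusted p of 0.05 by limma under any alternative run, against 15 at an unadjusted p under 0.05. That unadjusted count, compared across settings after seeing the data, was 4 of 21 genes with the stricter filter at the 75th percentile (19%, all genes 4.19%), 9 with a variance trend (12.3%, all genes 4.44%) and 9 to 13 without 1 array each (12.3% to 17.8%, all genes 3.35% to 5.58%). With the stricter filter 2 genes were higher and 9 lower in both MMTV-Cre arrays (9.52% and 42.9%, all genes 16.8% and 16.2%), the replicate gap was 0.14, and the class medians differed by 0.00021; they differed by 0.092 with the filter at the median probe set. Fewer genes enter these filters. Without 1 array each, 17 to 25 genes were higher (23.3% to 34.2%, all genes 31% to 34.5%) and 29 to 33 lower (39.7% to 45.2%, all genes 31.5% to 35.4%) with separate groups, since fewer arrays must separate, and the H/ACA median ran from −0.076 to 0.037. The class-median difference of levels, 0.47 over all arrays, was 0.26 without MMTV-Cre replicate 2 and up to 0.58 without wild-type replicate 2, and the box C/D median difference of −0.09 was −0.04 without wild-type replicate 2. Of 40 named members, 24 kept their direction without any 1 array. The difference turned for the others, over these ranges: Snora23 −0.16 to 0.0023, Snora28 −0.089 to 0.15, Snora69 −0.23 to 0.051, Snora73a −0.18 to 0.057, Snora75 −0.18 to 0.14, Snord104 −0.044 to 0.25, Snord11 −0.51 to 0.29, Snord111 −1.06 to 0.15, Snord118 −0.066 to 0.53, Snord17 −0.76 to 0.14, Snord35b −1.10 to 0.35, Snord70 −1.19 to 0.38, Snord71 −0.29 to 0.11, Snord72 −0.46 to 0.30, Snord73b −0.47 to 0.40 and Snord88a −0.44 to 0.70. Snora33 turned to −0.33 with the mean of its probe sets, which disagree. Snora75 turned from −0.017 to 0.0064 with median centring, which shifts each array as a whole. Under it Snord104 also moved from 0.10 to 0.13 and Snord47 from −0.23 to −0.21. The deviations of same-numbered arrays from their group means had a correlation of −0.02 over all genes. With a single contrast per group, this value cannot show whether the numbers pair the samples. The main fit treated the samples as unpaired. With the replicate block 0 members passed and 12 had an unadjusted limma p under 0.05 (16.4%, all genes 4.19%). Fits without an array leave a lone sample that is assumed to vary like the other group.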

Other observations

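A further 43 probe sets named a snoRNA together with another gene and, apart from those shared with Rpl13a, entered no comparison above. Of these, 16 carried the Snord116l1 and Snord116l2 symbols with the same value on each array, between 2.38 and 2.58, under the median probe set. The other 27 had levels from 1.59 to 7.88, the brightest shared by Snora81 and Eif4a2.

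The probe set shared by Snord57 and its host Nop56, chosen after its values were seen, measured 4.60 and 4.43 on the MMTV-Cre arrays against 5.44 and 5.58 on the wild-type arrays. Its log2 difference was −0.99 (95% interval −1.36 to −0.63), wider than that of any single-symbol snoRNA gene. By limma over 41345 probe sets its unadjusted p was 0.00125 and its adjusted p 0.965. The separate probe set of Nop56 differed by −0.10. The probe set shared by Snord34 and Rpl13a also lay lower in both MMTV-Cre arrays, by −0.43 (−0.87 to 0.02), as did Snord35a of the same host. The probe set shared by Snord32a and Rpl13a differed by −0.07 and that shared by Snord33, Mir5121 and Rpl13a by 0.12. Shared probe sets with separate groups lay in both directions. Those shared by Snord1c and Snord1b were higher in both MMTV-Cre arrays, by 0.40 (−0.22 to 1.02) and 0.37 (−0.07 to 0.80). So was that shared by Snord68, Rpl13 and Rpl13-ps6, by 0.20 (−0.20 to 0.60). Of the list linked to ribosomal RNA processing, Snord14a shared a probe set with Rps13 and Snord14e one with Hspa8. The first was lower in both MMTV-Cre arrays, by −0.13, and the second differed by 0.12 with overlapping groups. A probe set shared with a host gene cannot tell the RNAs apart.

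The 2 probe sets of Snora19 held the same values on all 4 arrays, so they are not independent measurements. The single-symbol probe set of Snord1b differed by 0.00025 with overlapping groups, unlike those that it shared with Snord1c. All of these Snord1b probe sets were dim, with a level of 1.32 for the first and of 1.84 and 1.62 for the shared ones.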
